A study of Oncorhynchus mykiss with 6 samples.

Results

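The miR-196 family in dorsal skin of rainbow trout (Oncorhynchus mykiss) was taken as every entry of the miRNA table whose name, without its species prefix, read miR-196, whatever the arm, letter or length form. A total of 11 of 1426 entries were found, holding 10 distinct sequences, because ssa-miR-196a-5p and tni-miR-196a carried the same sequence and the same counts in every library. Skin came from 3 wild-type fish (WR_S) and 3 yellow mutant fish (YR_S), all female, kept in 1 pond and sampled at 12 months post hatching, with 1 small RNA library per dorsal skin. The groups differed in body colour, and the gene behind the yellow mutant and the position of the piece along the body axis are not stated in the sources used here. Where 3 values are given for a group, they are replicates 1, 2 and 3 in order. The libraries held 4477917 to 5089802 counts in WR_S and 1442631, 4375641 and 4388665 counts across YR_S, so YR_S replicate 1 was the shallowest. Levels are counts scaled to 1e+06 per library (CPM) on library sizes scaled by the trimmed mean of M values (TMM), given as mean ± SD over 3 libraries per group. Intervals and floors cover counting error only.

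The genes of miR-196 lie in the HOX clusters, between HOX genes that pattern the posterior trunk, and share that location with miR-10, whose genes lie nearer the anterior HOX genes. In mouse, miR-196 directs cleavage of the HOXB8 transcript through a nearly fully paired site, and in zebrafish it acts on axial patterning and on the pectoral appendage. A miRNA hairpin gives a 5p and a 3p strand, and the seed, bases 2 to 8 of the mature strand, carries most of the pairing with targets. In whole skin, fewer cells of a type and less RNA per cell cannot be told apart.

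Left out below are dre-miR-196d_R-1, the low rno-miR-196c-5p and tni-miR-196a, which repeats ssa-miR-196a-5p. The other members' sequences, copied from the deposited table with T in place of U, have the seed in capitals.
ssa-miR-196a-5p: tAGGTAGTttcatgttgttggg
ssa-miR-196b-5p: tAGGTAGTttcaagttgttggg
dre-miR-196d: tAGGTAGTtttatgttgttggg
dre-miR-196d_R+1: tAGGTAGTtttatgttgttgggt
dre-miR-196d_R+1_1ss11TC: tAGGTAGTttcatgttgttgggc
ssa-miR-196a-3-3p: cCGCAACAagaaactgccttga
ssa-miR-196a-2-3p: cTACAACAcgaaactgtctga
ssa-miR-196b-3p_L+1R-1: aCAGGAACctgaaactacctga

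The 8 entries of the 5p arm shared the seed AGGTAGT, which no entry outside the family held at these bases, while the 3 entries of the 3p arm had 3 different seeds. Counted from 1 at the 5′ end of ssa-miR-196a-5p, ssa-miR-196b-5p differed from it only at T13A and dre-miR-196d only at C11T, with the reference base first, so these sequences were told apart by 1 base outside the seed. Genome positions were not used, so it was not tested whether each sequence comes from a separate trout gene. The low entry rno-miR-196c-5p differed at A12G. The table names dre-miR-196d_R+1_1ss11TC after miR-196d, but its sequence was that of ssa-miR-196a-5p with 1 further base, C, at the 3′ end. It is therefore read here as a length form of miR-196a. The letters of the miR-196 seed also occur in let-7, shifted by 1 base, since 35 of 65 let-7 entries held AGGTAGT at bases 3 to 9, as in the following sequence, in which capitals mark these letters.
ssa-let-7a-5p: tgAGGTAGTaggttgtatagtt

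The most abundant member was ssa-miR-196b-5p, at rank 178 of the 1426 entries by mean level. Its CPM was 309, 353 and 204 across WR_S and 235, 216 and 316 across YR_S. The groups overlapped, with WR_S replicate 3 lowest and WR_S replicate 2 highest. The fitted difference was close to 0 against its error (289 ± 76.9 CPM in WR_S and 256 ± 53.4 CPM in YR_S, log2 fold change YR_S over WR_S -0.17 ± 0.29 SE, edgeR adjusted p = 0.913).

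Next in abundance was ssa-miR-196a-5p, at rank 276. Its CPM was 103, 135 and 68.6 across WR_S and 58.3, 27.0 and 83.3 across YR_S. YR_S replicate 2 was the lowest library, and the groups overlapped because YR_S replicate 3 exceeded WR_S replicate 3. The mean level was 102 ± 33.2 CPM for WR_S against 56.2 ± 28.2 CPM for YR_S, and the log2 fold change of -0.86 ± 0.45 SE did not pass (edgeR adjusted p = 0.607). The size rested on single libraries, from -0.52 without YR_S replicate 2 (unadjusted p in edgeR 0.204) to -1.31 without YR_S replicate 3 (unadjusted p in edgeR 0.0387). tni-miR-196a repeats this measurement. It is not stated whether reads of this sequence were divided between both entries or counted in each, so they may be up to the sum of both.

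The form of miR-196a with a 3′ C, dre-miR-196d_R+1_1ss11TC, was scarce. It had 6, 8 and 2.5 counts across WR_S and 0, 0 and 5 counts across YR_S, and did not pass (log2 fold change -1.18 ± 1.34 SE, edgeR adjusted p = 0.856). The log2 fold change was -0.51 without YR_S replicate 2, and without YR_S replicate 3 this form was at 0 in every YR_S library, so that no size can be given. rno-miR-196c-5p had 2 counts in WR_S replicate 1 and 0 in the other libraries, and was the single member not tested.

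**Figure D1:**
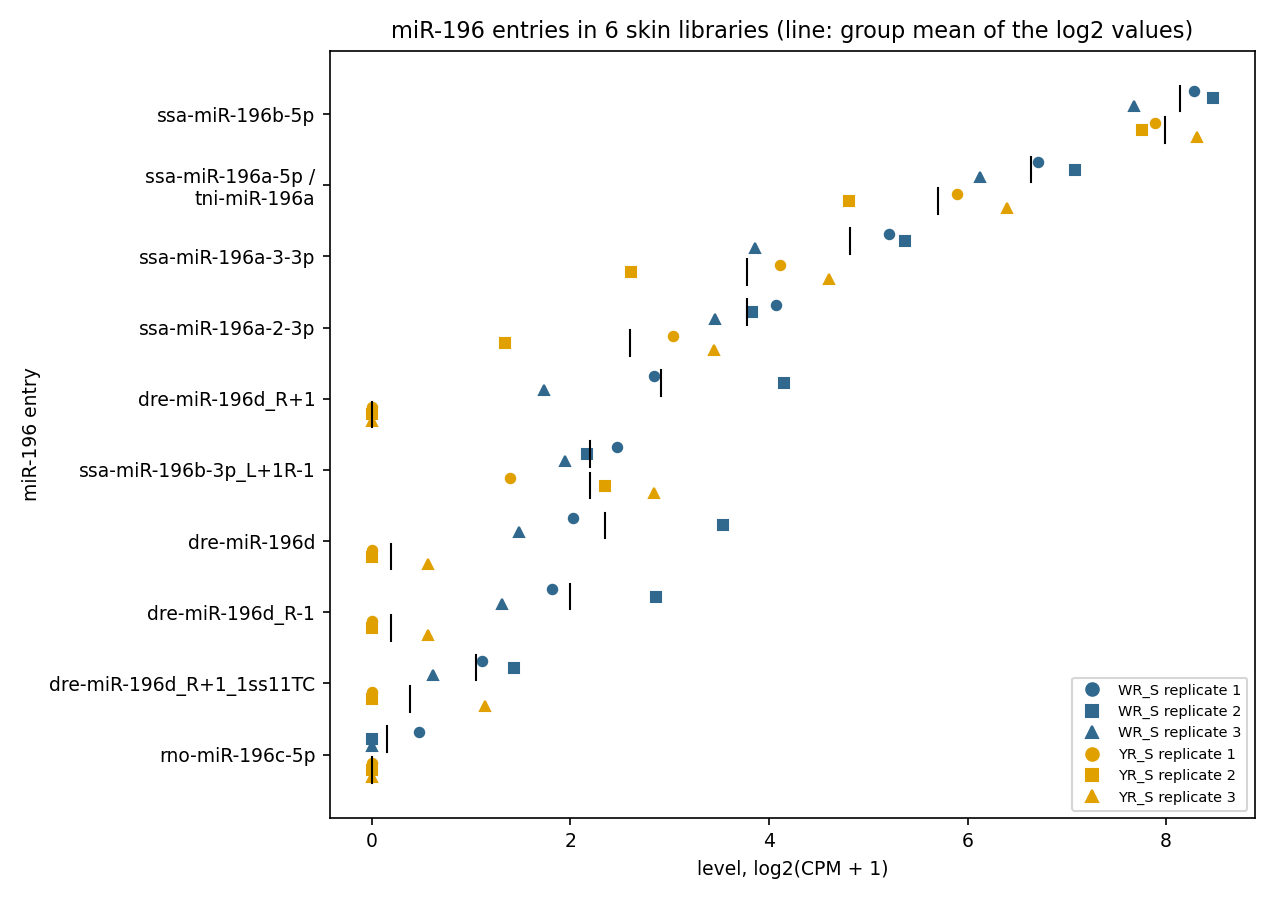
Level of each miR-196 entry on the log2(CPM + 1) scale (horizontal axis) in the 3 WR_S and 3 YR_S libraries, with black lines at the group means of the log2 values and entries in order of mean CPM. The 3 length forms of miR-196d lie at or near 0 in YR_S and at 1.48 to 16.8 CPM in WR_S, while the groups overlap for ssa-miR-196b-5p. The entry dre-miR-196d_R+1_1ss11TC, read as a form of miR-196a, is not among these 3 forms.

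Among the members the groups were farthest apart in the 3 length forms of miR-196d, a paralogue named in zebrafish. The form with 1 further T at its 3′ end, dre-miR-196d_R+1, had 32, 79 and 11 counts across WR_S and 0 counts in all 3 YR_S libraries. The reference form, dre-miR-196d, had 16, 50 and 8.5 counts in WR_S and 0, 0 and 2 counts in YR_S. The form 1 base shorter, dre-miR-196d_R-1, had 13, 29.5 and 7 counts in WR_S and 0, 0 and 2 counts in YR_S. As counted, every WR_S library was thus above every YR_S library in each form. Of the YR_S libraries only replicate 3 held any count. At the lowest WR_S level, YR_S replicate 1 would have held 2.8 counts of dre-miR-196d and 2.3 of dre-miR-196d_R-1. Both are below the floor of 3 counts, so its zeros do not place it below WR_S replicate 3 for these forms.

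Summed over the 3 forms, miR-196d was at 11.7, 33.7 and 5.61 CPM across WR_S, and at 0, 0 and 0.964 CPM across YR_S. The WR_S libraries differed widely among themselves, with replicate 2 far above the others. A count of 3 stood for 1.95 CPM in YR_S replicate 1 and for 0.765 and 0.723 CPM in YR_S replicates 2 and 3. At the lowest WR_S level, 8.62, 22.01 and 23.3 counts would have been collected at the depths of the 3 YR_S libraries, so even the shallow library was deep enough for the sum. Pooled over libraries, 246 counts in WR_S stood against 4 in YR_S, a ratio of 40.4 (95% exact binomial interval 15.6 to 149, counting error only).

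The WR_S mean of dre-miR-196d_R+1 was 8.42 ± 7.48 CPM, and the entry was at least 7.34-fold lower in YR_S with a floor of 3 counts in each YR_S library, and at least 3.70-fold lower without WR_S replicate 2. The pooled ratio of WR_S over YR_S was 24.3 for dre-miR-196d (95% exact binomial interval 6.49 to 204) and 16.4 for dre-miR-196d_R-1 (4.32 to 139), each resting on 2 YR_S counts. In edgeR's quasi-likelihood test, adjusted over 1085 entries, none of them passed. The adjusted p was 0.233 for dre-miR-196d_R+1, 0.273 for dre-miR-196d and 0.273 for dre-miR-196d_R-1 (unadjusted p = 0.00207, 0.00663 and 0.0111). The fitted log2 fold changes were -4.49 ± 1.24 SE for dre-miR-196d and -3.93 ± 1.20 SE for dre-miR-196d_R-1, and they depended on single libraries and on the model. YR_S replicate 3 held all their YR_S counts, and without it both forms were at 0 in YR_S, so that no size can be given. Without WR_S replicate 2 they were -3.48 and -3.22, and the unadjusted p of dre-miR-196d_R-1 was 0.0550. In limma on log2(CPM + 0.5) the differences were -2.83 for dre-miR-196d and -2.46 for dre-miR-196d_R-1, and on log2(CPM + 5) they were -0.87 and -0.67, a scale that understates changes of scarce entries.

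DESeq2 gave an adjusted p of 0.000740 for dre-miR-196d_R+1, 0.0496 for dre-miR-196d and 0.103 for dre-miR-196d_R-1. Of the 1018 entries it adjusted, it called 3.54%, and 2.26% as lower in YR_S. Over the alternatives that tested each form, the adjusted p ran from 0.000740 to 0.344 for dre-miR-196d_R+1 and from 0.0496 to 0.672 for dre-miR-196d. For dre-miR-196d_R-1 it ran from 0.103 to 0.789. The fits without a WR_S library could not test dre-miR-196d_R+1 and are not in its range.

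Over the whole table, 0% of the 1085 entries tested passed an adjusted p below 0.05 in edgeR, and 10.4% had an unadjusted p below 0.05 (113 entries). The study's thresholds for miRNAs were a 2-fold difference (1 on the log2 scale) together with an unadjusted p below 0.05, which 6.45% of all entries met as lower and 8.20% in either direction. Of the 10 members tested, 3 met it, the 3 forms of miR-196d, all lower in YR_S. dre-miR-196d_R+1 had passed the filter of 3 libraries above 0 through WR_S alone and so had to differ. The other 2 forms were above 0 in 3 WR_S libraries and 1 YR_S library, so they too met the filter through WR_S. Their calls are therefore no independent support, and the same filter preceded DESeq2. The same 3 miRNA forms share most of their bases and are no independent replicates of each other. Among the members 4 of 10 had every WR_S library above every YR_S library, as had 9.03% of all entries, and the fourth was ssa-miR-196a-2-3p. For dre-miR-196d and dre-miR-196d_R-1 the depth of YR_S replicate 1 was too low to settle this order. Between WR_S replicate 3 and YR_S replicate 3 it rested on few counts, 8.5 against 2 and 7 against 2 for these forms.

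Of the 10 members tested 9 had a log2 fold change below 0, against 52.6% of all entries, and their median was -1.04, also with dre-miR-196d_R+1 set at its bound, against -0.03 over all entries. These 10 entries hold 9 distinct count patterns and share reads, so the count and the median are descriptions of 1 family. The 3 forms of miR-196d and dre-miR-196d_R+1_1ss11TC were above 0 in 3 WR_S libraries and in at most 1 YR_S library. They thus met the filter through WR_S, which favours values below 0, so the count and the median are no independent support. The 1 member above 0, ssa-miR-196b-3p_L+1R-1, turned below 0 in limma at pseudocounts of 0.5 and 1, and when WR_S replicate 3 or YR_S replicate 3 was left out.

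**Figure D2:**
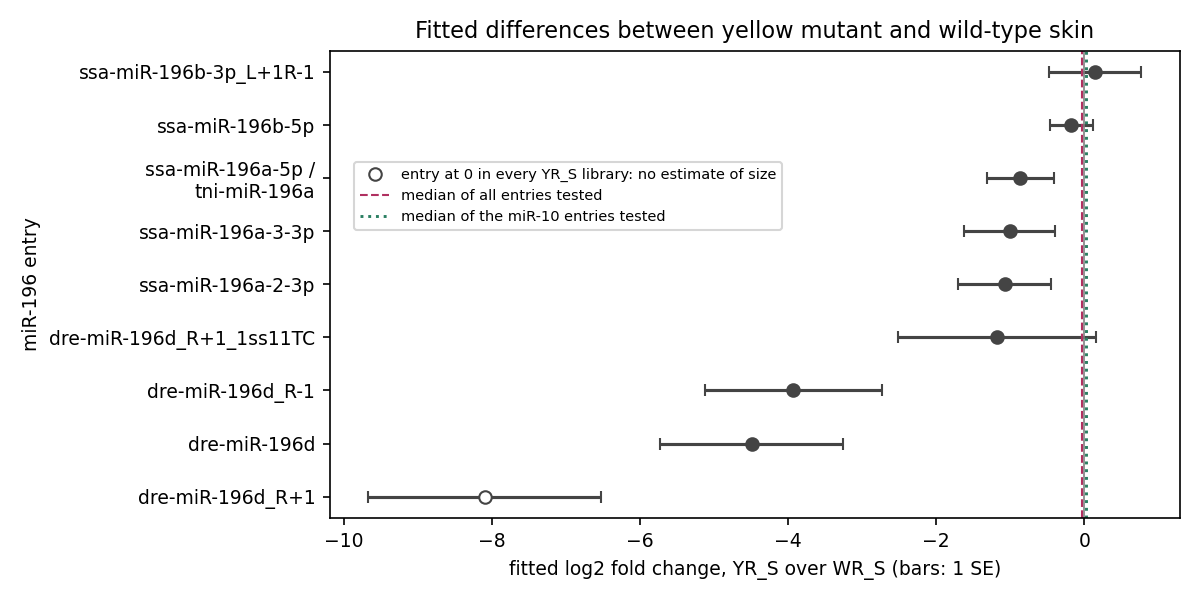
Fitted log2 fold change of YR_S over WR_S for the tested miR-196 entries (horizontal axis, bars 1 SE), identical counts drawn once, with the medians of all entries tested (dashed) and of the miR-10 entries tested (dotted). The miR-196d forms lie farthest to the left, and the open symbol marks dre-miR-196d_R+1, at 0 in all YR_S libraries, whose fitted value is no estimate of size.

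The 3p strands of miR-196a were lower on average in YR_S, and neither passed the adjustment. ssa-miR-196a-3-3p was at 36.0, 40.4 and 13.6 CPM across WR_S and at 16.3, 5.10 and 23.4 CPM across YR_S. The groups overlapped, as WR_S replicate 3 was below 2 of the YR_S libraries (log2 fold change -1.01 ± 0.62 SE, edgeR adjusted p = 0.682). ssa-miR-196a-2-3p was at 15.8, 13.2 and 9.95 CPM in WR_S and 7.16, 1.53 and 9.89 CPM in YR_S. Its groups did not overlap, but WR_S replicate 3 and YR_S replicate 3 nearly met (log2 fold change -1.08 ± 0.63 SE, edgeR adjusted p = 0.658). In YR_S replicates 1 and 2 this strand rested on 11 and 6 counts. Both sizes depended on single libraries. Without YR_S replicate 2 the log2 fold change was -0.58 for each strand, and without YR_S replicate 3 it was -1.58 for ssa-miR-196a-3-3p and -1.74 for ssa-miR-196a-2-3p. For ssa-miR-196a-3-3p it was -0.80 without WR_S replicate 2. Without WR_S replicate 3 it was -1.45 for this strand (unadjusted p in edgeR 0.0432, adjusted p 0.470).

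The 3p strand of miR-196b had no common direction over the libraries. ssa-miR-196b-3p_L+1R-1 was at 4.53, 3.50 and 2.86 CPM in WR_S and 1.63, 4.08 and 6.15 CPM in YR_S, with YR_S libraries both below and above all WR_S libraries (log2 fold change 0.14 ± 0.62 SE, edgeR adjusted p = 0.987).

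The 2 hairpin types also differed in how much of the 3p strand was found. In WR_S the 3p entries of miR-196a made up 25.5% to 33.4% of the summed counts of these entries and ssa-miR-196a-5p. In YR_S the share was 19.7% to 28.7%. The 5p sequence was taken once, and the scarce dre-miR-196d_R+1_1ss11TC was not included. For miR-196b the share was 0.982% to 1.44% in WR_S and 0.688% to 1.91% in YR_S. The share was therefore higher for miR-196a than for miR-196b in 6 of 6 libraries, while the groups overlapped for both. With both entries of the miR-196a 5p sequence summed, the miR-196a share was 10.9% to 20.0% over the 6 libraries, still above that of miR-196b in each. Of the 3p counts of miR-196a, ssa-miR-196a-3-3p held 57.7% to 76.9% over the 6 libraries.

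Levels within a library kept a stable order among the abundant members. ssa-miR-196b-5p exceeded ssa-miR-196a-5p, ssa-miR-196a-5p exceeded ssa-miR-196a-3-3p, and ssa-miR-196a-3-3p exceeded ssa-miR-196a-2-3p in 6 of 6 libraries. ssa-miR-196a-2-3p exceeded dre-miR-196d_R+1 in 5 of 6 libraries, with WR_S replicate 2 as the exception. Below them the order changed, and dre-miR-196d exceeded dre-miR-196d_R-1 in the 3 WR_S libraries by less than the spread between libraries.

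Because entries of 1 library share its depth and scaling, shares of the miR-196 sequences were set against each other. ssa-miR-196a-5p made up 25.1% (95% exact binomial interval 23.2 to 27.0), 27.6% (25.8 to 29.5) and 25.2% (22.9 to 27.7) of the summed counts of ssa-miR-196a-5p and ssa-miR-196b-5p across WR_S. Across YR_S the share was 19.9% (16.4 to 24.0), 11.1% (9.21 to 13.3) and 20.8% (18.9 to 22.8). The WR_S libraries lay close together and above all YR_S libraries, YR_S replicate 2 stood lowest, and the intervals of YR_S replicate 1 and of WR_S replicates 1 and 3 overlapped. With both entries of the miR-196a sequence summed, as if its reads had been divided between them, the share was 40.1% to 43.3% in WR_S and 20.0% to 34.5% in YR_S, so the level of the share depends on this reading and the separation of the groups does not. No test was made of this share, since the members were named with results of these data known. How often such shares separate for other entries was not tested. The levels of ssa-miR-196a-5p and of ssa-miR-196b-5p each overlapped between the groups.

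The forms of miR-196d made up 10.2% (95% exact binomial interval 7.89 to 12.9), 20.0% (17.2 to 22.9) and 7.56% (4.91 to 10.7) of the counts of miR-196d and ssa-miR-196a-5p across WR_S. In YR_S replicate 1 the share was 0 of 89.6 counts (95% exact binomial interval 0 to 4.02%). In YR_S replicate 2 it was 0 of 106 counts (0 to 3.42%). In YR_S replicate 3 it was 1.15% (0.313 to 2.91). With both miR-196a entries summed the shares were lower, 3.93% to 11.1% in WR_S and 0% to 0.576% in YR_S. A floor of 3 counts stood for 1.67% and 1.42% of these totals in the libraries at 0. The miR-196d counts were thus also lower in YR_S when set against miR-196a, from which miR-196d differs by C11T. The share restates the same miR-196d counts, those of dre-miR-196d_R+1 among them, and is no separate support. The further T was carried by 52.5%, 49.8% and 41.5% of the miR-196d counts in the WR_S libraries.

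**Figure D3:**
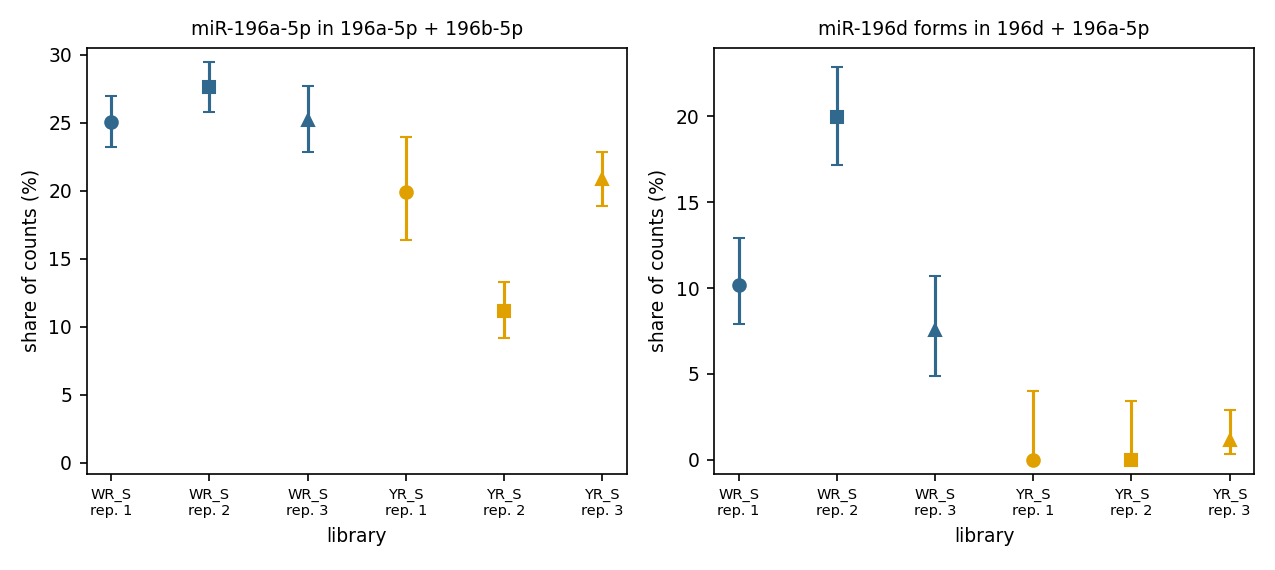
Share of counts in each library, in percent, of ssa-miR-196a-5p within miR-196a-5p plus miR-196b-5p (left) and of the miR-196d forms within miR-196d plus miR-196a-5p (right), with 95% exact binomial intervals as bars. The WR_S libraries lie at 25.1% to 27.6% and 7.56% to 20.0%, and the YR_S libraries at 11.1% to 20.8% and 0% to 1.15%.

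Summed over its 11 entries, the family was at 586, 715 and 373 CPM across WR_S and at 377, 281 and 525 CPM across YR_S. The groups overlapped widely, and the ratio of WR_S to YR_S means was 1.42, or 1.35 with identical counts taken once. Of the sum, ssa-miR-196b-5p held 52.8%, 49.4% and 54.5% in WR_S and 62.4%, 76.9% and 60.3% in YR_S. The 3 forms of miR-196d held 2.01%, 4.71% and 1.503% in WR_S and 0%, 0% and 0.184% in YR_S. Both entries of the miR-196a 5p sequence together held 35.3%, 37.7% and 36.8% in WR_S and 31.0%, 19.3% and 31.7% in YR_S. These 3 shares were separated between the groups, miR-196b being larger and miR-196a and miR-196d smaller in YR_S. The 3p arm held 9.62%, 7.97% and 7.06% in WR_S and 6.65%, 3.82% and 7.51% in YR_S, which overlapped. As parts of the same sum, the shares do not vary independently, and how often shares of other families separate was not tested. The summed levels overlapped, and so did the levels of ssa-miR-196b-5p itself, whose mean was not higher in YR_S.

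The miR-10 family, the other miRNAs of the HOX clusters, was far more abundant. Its 13 entries together reached 28983, 28062 and 24037 CPM across WR_S and 27866, 45298 and 27273 CPM across YR_S. YR_S replicate 2, the lowest library for miR-196, was the highest for miR-10. Of the 10 miR-10 entries tested, 0 met the study's thresholds or an unadjusted p below 0.05, 5 had a log2 fold change above 0 and 5 below, and their median was 0.03.

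The leading miR-10 entries showed the same library standing apart. The mean of ssa-miR-10b-5p was 14990 ± 2324 CPM in WR_S against 18447 ± 5942 CPM in YR_S, with 25283 CPM in YR_S replicate 2. For ssa-miR-10a-5p the means were 8989 ± 577 and 11551 ± 2972 CPM, and for ssa-miR-10d-5p_L-1R+1 2913 ± 345 and 3354 ± 1302 CPM. Only ssa-miR-10a-5p of the miR-10 entries tested had every YR_S library above every WR_S library, as had 90 of all 1085 entries tested. Its groups nearly met, at 8520 to 9634 CPM in WR_S and 9674 to 14978 CPM in YR_S. The miR-196 sum was 2.02%, 2.55% and 1.55% of the miR-10 sum in WR_S and 1.35%, 0.619% and 1.92% in YR_S, so that the groups overlapped in this ratio too.

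**Figure D4:**
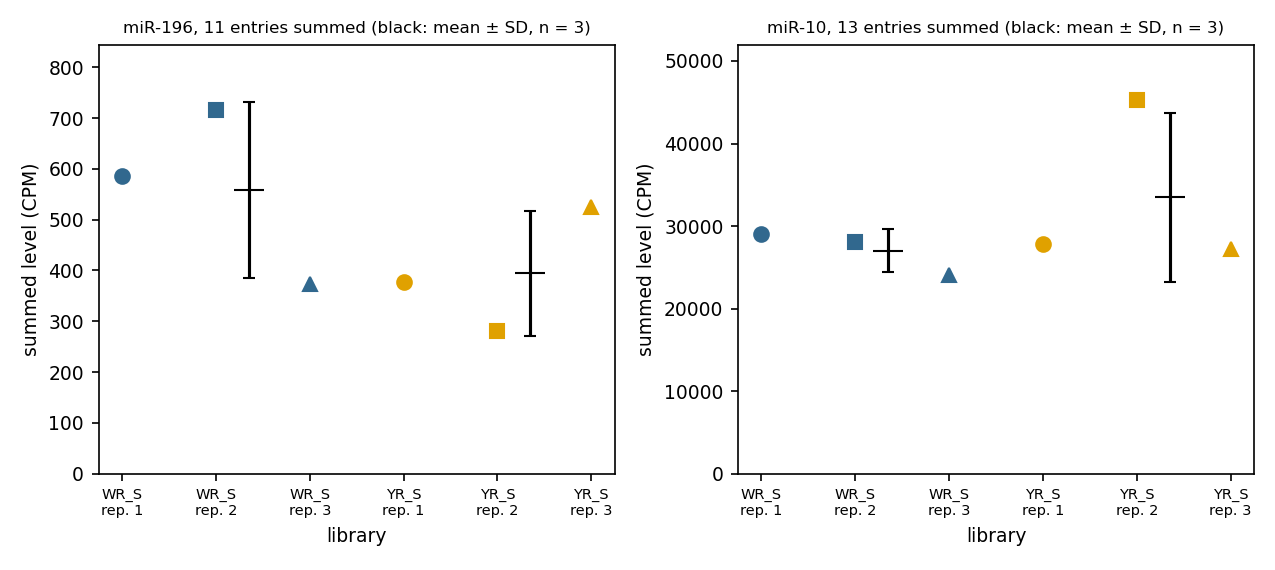
Summed level in CPM of the 11 miR-196 entries (left) and of the 13 miR-10 entries (right) in each library, with the group mean ± SD (n = 3) in black. YR_S replicate 2 is lowest for miR-196 at 281 CPM and highest for miR-10 at 45298 CPM.

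Marker miRNAs of the cells that skin samples can hold were read in the same libraries, by lists of family names. Entries that repeat 1 measurement were each kept in these lists, so the sums, numbers of entries and medians include repeats. The epidermal list (miR-200, miR-203, miR-205, miR-141 and miR-429, 35 entries) summed to 26354 to 36672 CPM in WR_S and 23184 to 35119 CPM in YR_S, so epidermis was well represented in both, and 28 of its 31 tested entries had a log2 fold change below 0 (median -0.31). The skeletal muscle list (21 entries) summed to 2806 to 12616 CPM in WR_S and 2007 to 4951 CPM in YR_S, highest in WR_S replicate 3, where the miR-196 sum was lowest of the WR_S libraries. Of its 20 tested entries 19 were below 0 (median -1.62), the same direction as most miR-196 entries. Over all entries tested 52.6% were below 0. The liver miRNA miR-122 summed to 3404 CPM in WR_S replicate 3 and to 5.86 to 51.3 CPM elsewhere. Its 2 tested entries were below 0 with the same fitted values, so they are read as 1 measurement. The list for pigment cells (9 entries, all of miR-204, with miR-211 at 0) summed to 18657 to 23430 CPM in WR_S and 36149 to 39851 CPM in YR_S. In this list 0 of the 8 tested entries were below 0 (median 0.89). Of all the lists, this miR-204 list was the only one whose summed levels separated the groups, in the direction opposite to miR-196d. Yellow skin is described by the study as lacking melanocytes and having fewer xanthophores, yet this list was higher in YR_S. Its level is therefore not read here as the amount of pigment cells.

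The remaining lists overlapped between the groups. Stroma (53 entries) summed to 212000 to 266910 CPM in WR_S and 232220 to 325760 CPM in YR_S, leukocytes (15 entries) to 1069 to 1672 and 968 to 1550 CPM, and red cells (7 entries) to 33.5 to 309 and 106 to 272 CPM. Of their tested entries 25 of 49, 7 of 13 and 3 of 6 were below 0, in that order (medians -0.05, -0.01 and -0.22). The part of these cell types in the miR-196 values was not tested. Without WR_S replicate 3, the library with the most muscle and liver miRNA, the log2 fold change of ssa-miR-196a-5p was -1.18 and its unadjusted p in edgeR 0.0418, with an adjusted p of 0.461, against -0.52 without YR_S replicate 2.

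Among the 484 other entries above 0 in all 6 libraries with a mean of at least 10 CPM, the 5 whose pattern was most like the miR-196 sum were ssa-miR-26a-3-3p, the candidate PC-5p-13500_182, aca-miR-181a_L+2, ola-miR-30a-3p_R+4 and ssa-miR-140-3p. Likeness was measured as the root mean square difference of centred log2(CPM + 1) over the 6 libraries, and was 0.139, 0.181, 0.204, 0.251 and 0.278 in that order, against a median of 0.622 over the entries compared. The nearest, ssa-miR-26a-3-3p, was at 13.9, 15.3 and 7.20 CPM in WR_S and 8.46, 6.89 and 10.1 CPM in YR_S, with the same highest and lowest libraries as the miR-196 sum. The entries were picked for this likeness, so it is a description of these 6 libraries.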

How the data were processed

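Known miRNAs were named by the authors from miRBase and further candidates from Mireap, once ACGT101-miR had cleaned the reads of artefacts and other RNA classes. They deposited an estimated count per miRNA entry and library (36.8% of values above 0 were not whole, tolerance 1e-06) and a normalized signal, which is the count times 1 factor per library. How reads that match several entries were counted is not given in the sources used here. Columns deposited beside these hold the authors' group means, fold changes and p-values, which were not used. A line naming no miRNA (1, with no value) was left out. Genome positions were not used here.

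Estimated counts were rounded and tested with edgeR's quasi-likelihood test (glmQLFTest, TMM, two-sided, Benjamini-Hochberg) over the 1085 entries above 0 in at least 3 libraries. SE is the log2 fold change divided by the root of F. Per-member values were read from this fit, and sums, shares and medians got no test. The members and lists were chosen with earlier results of these data known. Named entries were all members tested, the 3 most abundant miR-10 entries and the 5 most like patterns. The p-values set the group difference against the spread between 3 fish per group. In edgeR the spread of each entry was drawn towards a trend over all entries tested, so it does not come from these fish alone. Alternatives were RLE, totals and the authors' factors for scaling, other filters, DESeq2, limma at several pseudocounts, the replicate number as a block, merged sequences and each library left out. The shares with both miR-196a 5p entries summed, and with identical counts taken once, were chosen after seeing the data. The fits used edgeR 4.0.16, DESeq2 1.42.0 and limma 3.58.1 under R 4.3.3, and sums and intervals Python 3.11.15 with scipy 1.17.1.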

Additional observations from a re-analysis of the deposited data

How the results depend on the processing

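At an adjusted p below 0.05 DESeq2 called 36 entries and 2 members (dre-miR-196d_R+1 and dre-miR-196d), and the other alternatives called 0 of either. At the study's thresholds 89 entries and 3 members were called. Testing entries with a mean of at least 10 CPM gave 22 and 0, since the miR-196d forms were not tested there, and limma on log2(CPM + 5) gave 30 and 1. With 1 library left out the counts ran from 56 to 106 entries and from 1 to 6 members. Without WR_S replicate 2 they were 56 of 1012 entries tested and 1 of 9 members. Without WR_S replicate 3 they were 76 of 1001 entries and 5 of 9 members. Without YR_S replicate 3 they were 95 of 1028 entries and 6 of 10 members. ssa-miR-196a-5p and tni-miR-196a are 1 measurement in the counts of 5 and 6 members. Of the 6, 4 were at 0 in both YR_S libraries left, so they had passed the filter through WR_S and had to differ. Without any WR_S library, dre-miR-196d_R+1 could not be tested, as the filter of 3 libraries was kept. The log2 fold change of ssa-miR-196b-3p_L+1R-1 turned from 0.14 to -0.069 and -0.10 in limma on log2(CPM + 1) and log2(CPM + 0.5), and ran from -0.46 to 0.41 with 1 library left out, below 0 without WR_S replicate 3 (-0.08) and YR_S replicate 3. The cause was not tested. The other members tested kept their direction in every alternative that tested them. With 1 library left out the log2 ratio of the family sums (-0.50) ran from -0.76 to -0.28, and the median of miR-10 from -0.21 to 0.15. Scaling moved the median of all entries from -0.03 to -0.13 (library totals) and -0.14 (authors' factors).

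Same-numbered libraries deviated together with correlations of 0.13, 0.05 and 0.24, which does not show pairing, although each library correlated best with its own number. With the replicate number as a block, 0 entries passed the adjustment and 77 entries and 3 members met the study's thresholds.

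Scarce forms are limited by depth, as a count of 3 is 1.95 CPM in YR_S replicate 1.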
